A study of Mus musculus with 16 samples.

Results

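The Sox transcription factors examined here were 10 of the 30386 genes in the deposited expression table: *Sox1*, *Sox2* and *Sox3* of the SoxB1 subgroup, *Sox21* of SoxB2, *Sox4* and *Sox11* of SoxC, *Sox5* and *Sox6* of SoxD, and *Sox8* and *Sox9* of SoxE. Their rows were found by symbol, and each was compared between control and *Dbx2*-overexpressing cultures. The table holds 19 genes whose symbol is Sox followed by a number alone, and the remaining 9 are described only as context. Antisense genes at Sox loci, such as *Sox6os*, are not counted among the 19. The cells were neural stem/progenitor cells (NSPCs), self-renewing cells grown from the subventricular zone, the stem cell niche along the lateral ventricles, of C57BL/6 J/Babr mice 3 months of age. The 8 *GFP*-NSPC samples carried a constitutively expressed *GFP* transgene as control, and the 8 *Dbx2*-NSPC samples a constitutively expressed mouse *Dbx2* transgene, which encodes a homeodomain transcription factor. All 16 were proliferating, non-adherent cultures, and they came from 2 pairs of transgenic lines, so that samples of a line share 1 derivation. The labels number the samples of each group from 1 to 8 and do not give the line. Levels separated the samples numbered 1 to 4 from those numbered 5 to 8 for several Sox genes, and results are therefore also given within each of these sample sets. This division rests on the values and is not stated by the labels.

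Sox proteins bind DNA through a high-mobility-group domain and bend it, and subgroups differ in what they do once bound. SoxB1 proteins keep neural progenitors undifferentiated, and *Sox21* encodes a repressor that acts on SoxB1 targets in the opposite sense. SoxC proteins activate genes of neuronal differentiation, SoxD proteins lack an activation or repression domain of their own and modulate other Sox factors, and SoxE proteins act in gliogenesis and in neural stem cell maintenance.

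The libraries were made from 100 ng of total RNA with a kit that primes at the poly-A tail, so that each transcript is read near its end, and levels are given as CPM, the reads of a gene scaled to the total of the sample, which are not divided by length. Totals ran from 1803928 to 3258885 reads in *GFP*-NSPCs and from 2214008 to 3293285 reads in *Dbx2*-NSPCs. Every value of the 10 Sox genes rested on 57 to 4107 reads, whereas 3 reads, taken as the floor, were worth 0.9105 to 1.6624 CPM. The floor covers only the error of counting, because the reads carry no molecular identifiers and may be copies of the same molecule. Fold changes are those of log2(CPM + 0.5), *Dbx2*-NSPCs over *GFP*-NSPCs, with the SE, and adjusted p-values are limma's, corrected over the 12533 genes tested. The p-values measure the spread between these cultures. In cultures sequenced in bulk, fewer cells of a type and less RNA per cell cannot be told apart.

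*Dbx2* itself was measured first. In *GFP*-NSPCs it ran from 30.67 to 171.22 CPM with a median of 64.4 CPM, and in *Dbx2*-NSPCs from 114.0 to 232.13 CPM with a median of 146.66 CPM. It was higher in *Dbx2*-NSPCs in 8 of 8 same-numbered pairs, although the ranges overlapped, with a log2 fold change of 1.26 (SE 0.317, limma adjusted p = 0.00978). The labels do not say that samples of the same number belong together, so here and below such pairs are a description and not matched experiments. The control level differed between the sample sets, with means of 120 ± 35.6 CPM in *GFP*-NSPCs numbered 1 to 4 and 34 ± 3.96 CPM for numbers 5 to 8 (SD, n = 4 each). The log2 fold change was 0.54 (SE 0.198, adjusted p = 0.0891) in the samples numbered 1 to 4 and 1.99 (SE 0.118, adjusted p = 5.67e-08) in those numbered 5 to 8. The 3′ reads do not tell the transgene from the endogenous gene, and how far reads of the transgene were counted under *Dbx2* was not tested.

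All 10 Sox genes passed the filter on low values, and 6 of them differed between *Dbx2*-NSPCs and *GFP*-NSPCs. *Sox21*, *Sox1*, *Sox11*, *Sox5* and *Sox8* fell and *Sox6* rose, whereas *Sox2*, *Sox3*, *Sox4* and *Sox9* did not pass the threshold over all samples. Of all 12533 tested genes, 15.8% were called, 8.03% higher and 7.78% lower. The median log2 fold change of the 10 was -0.39 and that of all tested genes -0.022, and the median absolute values were 0.41 and 0.23. The groups did not overlap for *Sox21* alone among the 10, against 3.41% of all tested genes. In a fit blocked by replicate number, 8 of the 10 passed, *Sox2* being added among the lower and *Sox9* among the higher genes, against 21.7% of all tested genes. Within the samples numbered 1 to 4, 6 of the 10 passed (15.6% of all tested genes), and within those numbered 5 to 8, 8 of the 10 (23.2%). The fold change itself differed between the sample sets for *Sox3* and *Sox4*, and for 9.44% of all tested genes.

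**Figure D1:**
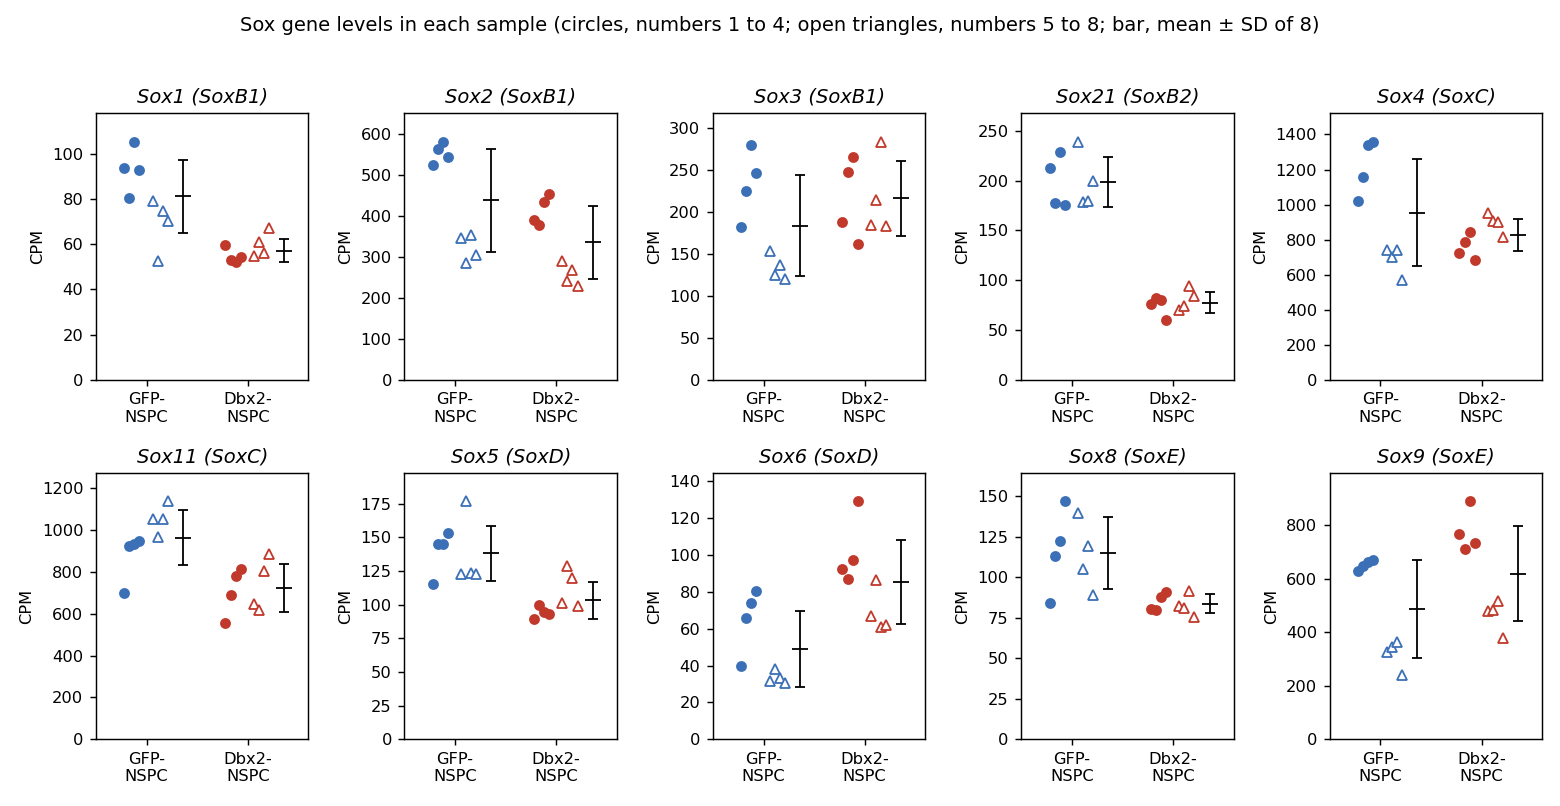
Each panel plots the CPM of 1 Sox gene (linear axis from 0) in the 8 *GFP*-NSPC samples (blue) and the 8 *Dbx2*-NSPC samples (red), with filled circles for samples numbered 1 to 4, open triangles for those numbered 5 to 8, and a black bar for the mean ± SD of 8. *Sox21* shows a gap between the groups, from 93.9 to 174.95 CPM, and *Sox4* shows *GFP* circles above and *GFP* triangles below the *Dbx2* samples of the same numbers.

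*Sox21* (ENSMUSG00000061517) is a single-exon gene on the minus strand of GRCm38 chr14:118233232-118237030. In the *GFP*-NSPC samples numbered 1 to 8 it stood at 212.31, 177.06, 228.73, 174.95, 238.83, 178.82, 179.29 and 199.45 CPM. In the *Dbx2*-NSPC samples of the same numbers it stood at 75.77, 81.95, 80.43, 59.92, 69.69, 74.24, 93.9 and 84.41 CPM. Every *Dbx2*-NSPC sample lay below every control, with means of 77.5 ± 10.2 and 199 ± 25.4 CPM (SD, n = 8 each). This was a 2.55-fold decrease, with a log2 fold change of -1.35 (SE 0.0957, limma adjusted p = 1.61e-08). The exact 2-sided permutation test, with 12870 assignments of 8 against 8, gave p = 0.000155, the smallest it can give. *Sox21* fell in both sample sets, with log2 fold changes of -1.41 (adjusted p = 3.23e-05) in the samples numbered 1 to 4 and -1.30 (adjusted p = 2.37e-06) in those numbered 5 to 8. The difference between these, 0.11, had a 95% interval from -0.26 to 0.48. The control means of the sets were 198 ± 26.6 and 199 ± 28.2 CPM (SD, n = 4 each). A long non-coding gene on the opposite strand, *Gm4675*, shares 713 exon bases with *Sox21* and had means of 5.21 CPM in the controls and 4.15 CPM with the *Dbx2* transgene. The strand setting of the counting is not given in the sources used here, so reads of overlapping genes on opposite strands may not have been told apart.

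The 3 SoxB1 genes did not move together. *Sox1*, on chr8:12395295-12400126, ran from 52.76 to 105.24 CPM with a median of 79.83 CPM in *GFP*-NSPCs, and from 52.1 to 67.19 CPM with a median of 55.27 CPM in *Dbx2*-NSPCs. The lowest control, number 6, lay inside the *Dbx2* range and the other 7 lay above it. *Sox1* fell 1.39-fold, with a log2 fold change of -0.48 (SE 0.116, limma adjusted p = 0.00771), and it was lower in 7 of 8 same-numbered pairs. Its decrease was -0.76 (adjusted p = 0.001) in the samples numbered 1 to 4 and -0.20 (adjusted p = 0.304) in those numbered 5 to 8, and the difference between the sets did not pass (0.56, adjusted p = 0.0518).

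*Sox2*, the SoxB1 gene most used to mark neural stem cells, lies on chr3:34650405-34652461. It ran from 285.25 to 580.31 CPM with a median of 438.46 CPM in *GFP*-NSPCs, and from 228.92 to 453.17 CPM with a median of 334.42 CPM in *Dbx2*-NSPCs. Among the samples numbered 1 to 4, *GFP*-NSPCs had 553 ± 24.3 CPM and *Dbx2*-NSPCs 414 ± 35.6 CPM, with no overlap. Among those numbered 5 to 8 they had 322 ± 32.2 and 257 ± 27.3 CPM (SD, n = 4 each), and *GFP* sample 6, at 285.25 CPM, lay below *Dbx2* sample 5, at 290.38 CPM. The means of the sample sets lay farther apart than those of the transgenes, and over all samples the log2 fold change of -0.37 (SE 0.182, 95% interval -0.75 to 0.01) did not pass (adjusted p = 0.181). *Sox2* was nevertheless lower in 8 of 8 same-numbered pairs, by 0.24 to 0.57 on the log2 scale. It passed with the replicate block (adjusted p = 0.000508), in the samples numbered 1 to 4 (-0.42, adjusted p = 0.00849) and in those numbered 5 to 8 (-0.32, adjusted p = 0.0221).

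*Sox3*, the X-linked SoxB1 gene (chrX:60891366-60893430), stood at 182.1, 224.67, 279.89 and 246.27 CPM in *GFP*-NSPCs numbered 1 to 4 and at 152.94, 125.45, 136.95 and 120.08 CPM in those numbered 5 to 8. In *Dbx2*-NSPCs it stood at 187.5, 247.35, 265.06 and 162.18 CPM in the first set and at 184.79, 214.64, 283.51 and 183.34 CPM in the other. The groups overlapped in the first set, whereas in the samples numbered 5 to 8 every *Dbx2*-NSPC sample lay above every control. Its log2 fold change was -0.12 (SE 0.168, adjusted p = 0.675) in the samples numbered 1 to 4 and 0.68 (SE 0.129, adjusted p = 0.00161) in those numbered 5 to 8, a difference of 0.80 (95% interval 0.35 to 1.25, adjusted p = 0.0173). The pooled value was 0.28 (SE 0.173, adjusted p = 0.309). The mean levels of *Sox3* in the 2 sets of *Dbx2*-NSPCs were 216 and 217 CPM, so that the sets differed in the controls, at 233 and 134 CPM.

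The SoxC genes were the most abundant of the 10 by CPM and differed from each other in pattern. *Sox4* (chr13:28948919-28953713) stood at 1020.86, 1158.98, 1338.2 and 1357.96 CPM in *GFP*-NSPCs numbered 1 to 4, and at 723.04, 784.86, 843.06 and 684.6 CPM in the *Dbx2*-NSPCs of these numbers. In the samples numbered 5 to 8 it stood at 740.86, 702.39, 741.42 and 569.57 CPM in *GFP*-NSPCs, and at 949.64, 905.46, 898.39 and 815.05 CPM in *Dbx2*-NSPCs. Controls lay above *Dbx2*-NSPCs in the first set and below them in the other, with no overlap in either. *Sox4* fell 1.6-fold in the samples numbered 1 to 4 (log2 fold change -0.68, SE 0.116, adjusted p = 0.00212) and rose 1.3-fold in those numbered 5 to 8 (0.38, SE 0.0899, adjusted p = 0.00712). The difference between the sets was 1.06 (95% interval 0.75 to 1.36, limma adjusted p = 1.68e-05), and the pooled value of -0.15 (SE 0.159, adjusted p = 0.579) averages over opposite signs. Among controls, the set means of *Sox4* were 1219 ± 160 and 689 ± 81.4 CPM, and in *Dbx2*-NSPCs 759 ± 69.7 and 892 ± 56.2 CPM (SD, n = 4 each). The non-coding gene *Gm26735*, on the opposite strand, shares 2616 exon bases with *Sox4* and had means of 0.193 CPM in the controls and 0.201 CPM with the *Dbx2* transgene, under the floor.

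*Sox11* (chr12:27334264-27342574) ran from 697.36 to 1135.44 CPM with a median of 956.24 CPM in *GFP*-NSPCs, and from 556.73 to 882.58 CPM with a median of 733.79 CPM in *Dbx2*-NSPCs. Control number 1, the lowest, lay inside the *Dbx2* range and the other 7 controls lay above it. *Sox11* fell 1.33-fold, with a log2 fold change of -0.41 (SE 0.106, limma adjusted p = 0.0113), and was lower in 8 of 8 same-numbered pairs. Within the sets its values were -0.31 (adjusted p = 0.167) and -0.52 (adjusted p = 0.00257), and their difference was -0.22 (95% interval -0.59 to 0.15). Unlike *Sox4*, its control level was not higher in the samples numbered 1 to 4, at 874 ± 118 against 1051 ± 68.6 CPM (SD, n = 4 each). *Sox12*, the remaining SoxC gene, was at 29.7 ± 5.72 and 29.9 ± 6.93 CPM (SD, n = 8 each), with a log2 fold change of 0.00 and a 95% interval from -0.31 to 0.31.

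The SoxD pair moved in opposite directions, each with an adjusted p under 0.05. *Sox5* (chr6:143828425-144781977) ran from 115.62 to 176.67 CPM with a median of 134.12 CPM in *GFP*-NSPCs, and from 89.58 to 128.6 CPM with a median of 99.56 CPM in *Dbx2*-NSPCs. The ranges overlapped only through *Dbx2* samples 6 and 7, which lay among the lower controls. *Sox5* fell 1.33-fold, with a log2 fold change of -0.41 (SE 0.099, limma adjusted p = 0.00716), in 8 of 8 same-numbered pairs. Its decrease was -0.56 (adjusted p = 0.00467) in the samples numbered 1 to 4 and -0.27 (adjusted p = 0.153) in those numbered 5 to 8, which did not differ past the threshold (0.29, adjusted p = 0.36).

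*Sox6* (chr7:115470872-116038796) stood at 39.48, 65.96, 73.64, 80.31, 31.58, 38.03, 33.47 and 30.43 CPM in the *GFP*-NSPC samples numbered 1 to 8. In the *Dbx2*-NSPC samples of the same numbers it stood at 92.15, 86.8, 97.04, 128.81, 66.88, 86.35, 60.95 and 62.13 CPM. The groups overlapped over all samples, through controls 2, 3 and 4, but within each sample set every *Dbx2*-NSPC sample lay above every control. *Sox6* rose 1.8-fold, with a log2 fold change of 0.85 (SE 0.214, limma adjusted p = 0.0103), in 8 of 8 same-numbered pairs. It rose in both sets, by 0.67 (adjusted p = 0.0442) and by 1.03 (adjusted p = 6.1e-05). *Sox13*, the remaining SoxD gene, was low, at 4.66 ± 2.69 and 2.92 ± 1.21 CPM (SD, n = 8 each), with a log2 fold change of -0.50 (SE 0.363, adjusted p = 0.383). It fell in the samples numbered 5 to 8 (-0.89, adjusted p = 0.0335), and in those numbered 1 to 4 the value was -0.12 (adjusted p = 0.9), a difference that did not pass (adjusted p = 0.46). *Sox6os*, an antisense gene at the *Sox6* locus that shares no exon base with it, was named after its values were seen. Its mean was 2.93 ± 1.37 CPM in the controls and 0.981 ± 0.738 CPM with the *Dbx2* transgene (SD, n = 8 each), close to the floor, and its call depended on the tool (limma adjusted p = 0.0235, edgeR adjusted p = 0.0514).

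Of the SoxE pair, *Sox8* fell and *Sox9* was higher in each same-numbered pair. *Sox8* (chr17:25565892-25570686) ran from 84.2 to 146.63 CPM with a median of 116.2 CPM in *GFP*-NSPCs, and from 75.29 to 91.64 CPM with a median of 81.54 CPM in *Dbx2*-NSPCs. Controls 1 and 8 lay inside the *Dbx2* range and the other 6 above it. Among same-numbered pairs it was lower in 8 of 8. *Sox8* fell 1.35-fold, with a log2 fold change of -0.43 (SE 0.106, limma adjusted p = 0.00805). The value was -0.43 (adjusted p = 0.0725) in the samples numbered 1 to 4 and -0.44 (adjusted p = 0.0211) in those numbered 5 to 8.

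*Sox9* (chr11:112782224-112787760), which encodes a factor that acts early in the acquisition of glial competence, ran from 242.63 to 672.15 CPM with a median of 497.32 CPM in *GFP*-NSPCs, and from 378.49 to 889.62 CPM with a median of 615.74 CPM in *Dbx2*-NSPCs. Among the samples numbered 1 to 4, controls had 653 ± 18.7 CPM and *Dbx2*-NSPCs 775 ± 79.3 CPM, and among those numbered 5 to 8 they had 320 ± 54.3 and 465 ± 60.4 CPM (SD, n = 4 each). No control overlapped the *Dbx2*-NSPCs of its own set. Over all samples the log2 fold change was 0.39 (SE 0.224, 95% interval -0.07 to 0.86, adjusted p = 0.257). *Sox9* was higher in 8 of 8 same-numbered pairs, by 0.13 to 0.64 on the log2 scale, and passed with the replicate block (adjusted p = 0.00129). Within the sets it was 0.24 (adjusted p = 0.108) and 0.54 (adjusted p = 0.00587), a difference of 0.30 (95% interval -0.03 to 0.64). *Sox10*, the SoxE gene of the oligodendrocyte lineage, was above 0 in 1 sample only, at 0.35 CPM, and *Sox7*, a SoxF gene, likewise in 1 sample, at 0.41 CPM, both under the floor. *Sox14*, *Sox15*, *Sox17*, *Sox18* and *Sox30* were listed at 0 in all 16 samples.

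**Figure D2:**
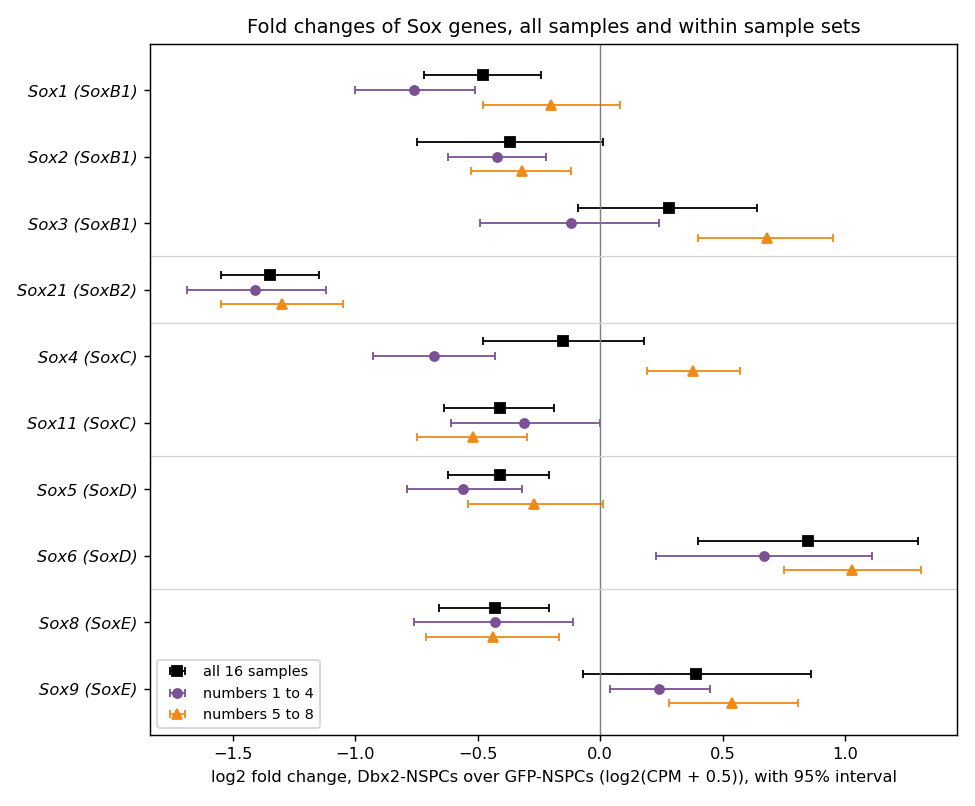
The plot gives the log2 fold change of each Sox gene, *Dbx2*-NSPCs over *GFP*-NSPCs on the log2(CPM + 0.5) scale, with its 95% interval, for all 16 samples (black squares), samples numbered 1 to 4 (purple circles) and samples numbered 5 to 8 (orange triangles). *Sox21* lies farthest to the left in all 3 fits (-1.35, -1.41 and -1.30), the within-set intervals of *Sox4* lie on opposite sides of 0, and the within-set intervals of *Sox2* are narrower than its pooled one.

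Summed by subgroup, opposite movements offset each other. SoxD tags summed to 187 ± 35.1 CPM in the controls and 188 ± 20.9 CPM with the *Dbx2* transgene (mean ± SD of 8), although *Sox5* fell and *Sox6* rose. SoxB1 tags summed to 702 ± 198 and 609 ± 93.3 CPM, and SoxE tags to 602 ± 188 and 704 ± 181 CPM. SoxC tags summed to 1916 ± 261 and 1549 ± 139 CPM, and *Sox21*, the only SoxB2 gene with reads, made up the SoxB2 sum. All 10 together came to 3606 ± 641 and 3128 ± 254 CPM. The sums differed between the sample sets. SoxB1 averaged 879 CPM in controls and 684 CPM in *Dbx2*-NSPCs numbered 1 to 4, but 525 and 533 CPM in those numbered 5 to 8. For SoxC the averages were 2093 and 1468 CPM in the first set and 1739 and 1630 CPM in the other, and for the 10 together 4145 and 3283 CPM and 3067 and 2972 CPM. SoxE averaged 770 and 860 CPM in the first set and 434 and 547 CPM in the other. These sums were not tested.

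Log ratios between Sox genes within a sample need no scaling between samples, and they are given as a description, with no test. The log2 ratio of *Sox3* to *Sox21*, the SoxB1 activator over the SoxB2 repressor, ran from -0.73 to 0.49 in *GFP*-NSPCs and from 1.11 to 1.71 in *Dbx2*-NSPCs. These ranges did not overlap, as those of *Sox21* alone did not. The ratio of *Sox2* to *Sox21* ran from 0.53 to 1.67 in *GFP*-NSPCs and from 1.43 to 2.91 in *Dbx2*-NSPCs. Within each sample set it did not overlap, at 1.30 to 1.67 against 2.20 to 2.91 in the samples numbered 1 to 4 and at 0.53 to 0.97 against 1.43 to 2.05 in those numbered 5 to 8. The ratio of *Sox6* to *Sox5* ran from -2.20 to -0.93 in *GFP*-NSPCs and from -0.97 to 0.47 in *Dbx2*-NSPCs, and that of *Sox9* to *Sox8* from 1.22 to 2.89 and from 2.32 to 3.33. Both of these overlapped over all samples and were higher in every *Dbx2*-NSPC sample than in every control of its own set. The ratio of *Sox4* to *Sox11* was 0.33 to 0.55 in controls numbered 1 to 4 and -0.99 to -0.46 in controls numbered 5 to 8, so that the more abundant SoxC gene of the controls was not the same in the sample sets.

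**Figure D3:**
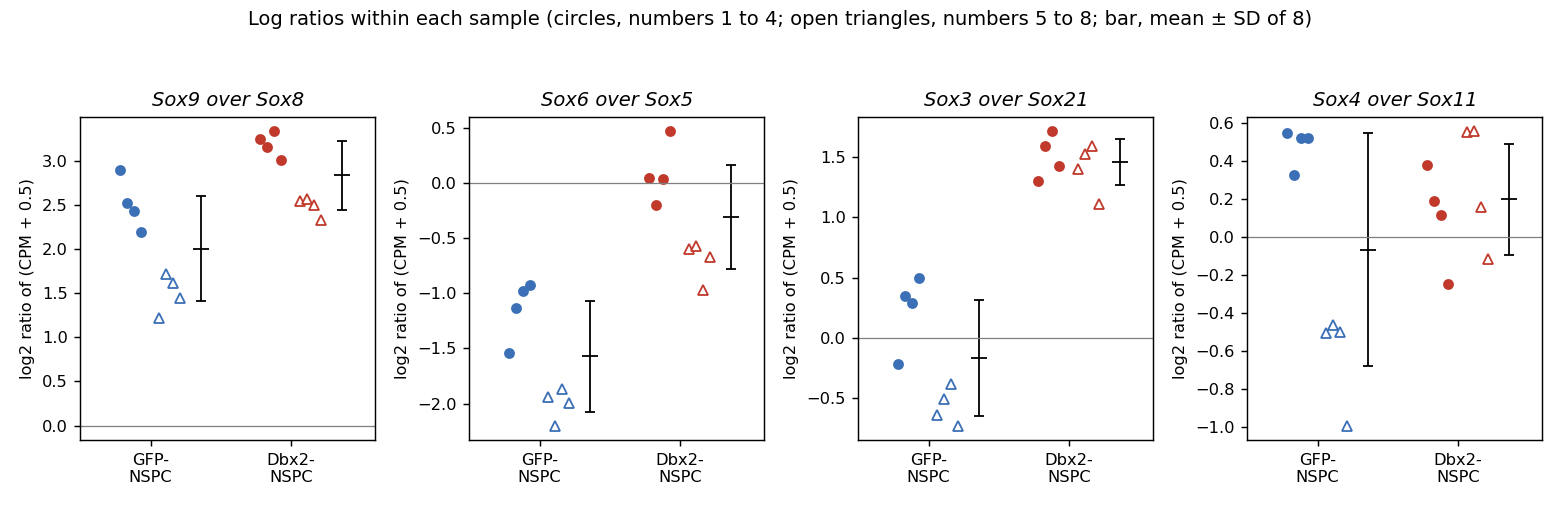
Each panel plots the log2 ratio of (CPM + 0.5) between a pair of Sox genes in each sample, with *GFP*-NSPCs in blue and *Dbx2*-NSPCs in red, filled circles for samples numbered 1 to 4, open triangles for those numbered 5 to 8, and a black bar for the mean ± SD of 8. The *Sox3* over *Sox21* panel shows no overlap between the groups, and the *Sox4* over *Sox11* panel shows the controls split by sample set, at 0.33 or more and at -0.46 or less.

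Promoter windows, the 250 bases before a RefSeq gene start on GRCm38.p6, were available here for 8 of the 10 genes (13 windows, 6 of them of *Sox6*). Those of *Sox21*, the gene whose groups did not overlap, and of *Sox4*, the gene with opposite folds in the sample sets, are shown 5′ to 3′ on the gene's own strand. The *Sox21* window is chr14:118237031-118237280 and the *Sox4* window chr13:28953700-28953949, both on the minus strand. Capitals mark matches on either strand to 4 motifs: TAAT, the core recognised by many homeodomain proteins, ACAAAG and ACAATG, forms of the Sox motif, and CCAAT.
Sox21: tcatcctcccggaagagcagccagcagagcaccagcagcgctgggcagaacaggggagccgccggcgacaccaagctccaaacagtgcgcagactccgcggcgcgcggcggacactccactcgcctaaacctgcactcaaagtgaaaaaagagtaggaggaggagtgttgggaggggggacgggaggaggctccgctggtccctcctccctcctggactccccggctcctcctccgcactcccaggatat
Sox4: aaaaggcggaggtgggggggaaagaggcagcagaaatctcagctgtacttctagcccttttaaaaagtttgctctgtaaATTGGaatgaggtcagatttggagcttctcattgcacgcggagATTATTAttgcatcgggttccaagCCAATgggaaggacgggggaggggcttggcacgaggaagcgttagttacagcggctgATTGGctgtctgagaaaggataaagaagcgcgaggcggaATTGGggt
The *Sox21* window held no match to any of these motifs. The *Sox4* window held 4 matches to CCAAT, of which 3 read as ATTGG on this strand, and 2 overlapping matches to TAAT, which read as ATTA. Among the 32851 promoter windows of this length, 54.9% held TAAT, 16.5% ACAAAG, 10.7% ACAATG and 33.8% CCAAT, so that a match is common by letters alone. These matches describe the sequence and are not evidence of binding.

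Genes that work with *Sox2* or are known as its targets were taken as a list of 15, of which 14 were tested. Of these, 4 fell, 1 rose and 9 did not pass, with a median log2 fold change of -0.18, and the 35.7% called compares with 15.8% of all tested genes. Within the samples numbered 1 to 4, 4 of the 14 passed, and within those numbered 5 to 8, 9 of them, where 15.6% and 23.2% of all tested genes passed. The POU factors *Pou3f3* and *Pou3f4*, partners of SoxB1 proteins on DNA, fell by 0.93 (SE 0.0962, limma adjusted p = 2.43e-06) and by 0.82 (SE 0.149, adjusted p = 0.000746) on the log2 scale. *Pax6*, a paired-box factor of neural progenitors, fell by 0.74 (SE 0.119, adjusted p = 0.00025), with levels of 42.9 ± 5.02 and 25.6 ± 4.52 CPM (SD, n = 8 each) that did not overlap between the groups. *Nr2e1*, an orphan nuclear receptor required for adult neural stem cell self-renewal, fell by 0.89 (SE 0.285, adjusted p = 0.0382), and the G1 cyclin *Ccnd1* rose by 0.27 (SE 0.0743, adjusted p = 0.0169). *Pou3f1* gave opposite values in the sample sets, 1.96 (adjusted p = 1.66e-05) and -0.84 (adjusted p = 3.48e-05). Among the abundant genes that did not pass were the chromatin remodeller *Chd7* (-0.19, adjusted p = 0.311), the receptor *Notch1* (0.33, adjusted p = 0.0669) and the intermediate filament gene *Nes* (-0.31, adjusted p = 0.27). *Notch1* passed with the replicate block (adjusted p = 0.0252). All 3 passed in the samples numbered 5 to 8, with -0.30 for *Chd7* (adjusted p = 0.00712), 0.53 for *Notch1* (adjusted p = 0.00373) and -0.65 for *Nes* (adjusted p = 2.28e-05). Of these, the fold change differed between the sample sets for *Nes*, which had 0.03 in the samples numbered 1 to 4 (difference -0.68, adjusted p = 0.00488).

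Of the list of 14 gliogenic factors and *Sox9* targets, 13 were tested, and 2 rose, 4 fell and 7 did not pass (46.2% called, against 15.8% of all tested genes), with a median of 0.02. In the sets numbered 1 to 4 and 5 to 8, 6 and 10 of the 13 passed, against 15.6% and 23.2% of all tested genes. *Gfap*, the intermediate filament gene of astrocytes and adult neural stem cells, rose from 5.77 ± 7.48 to 42.6 ± 24.7 CPM (mean ± SD of 8), or by 3.31 on the log2 scale (SE 0.554, limma adjusted p = 0.000354). *Nfix*, a nuclear factor I gene, rose by 0.61 (SE 0.0831, adjusted p = 4.81e-05), and by more in the samples numbered 5 to 8 (0.82) than in those numbered 1 to 4 (0.39; difference 0.43, adjusted p = 0.0177). *Nfia*, another of that family, fell by 0.34 (SE 0.0872, adjusted p = 0.011), and *Nfib* had a value of -0.01 (adjusted p = 0.948). *Aldh1l1*, an enzyme of folate metabolism and an astrocyte marker, fell by 1.20 (SE 0.188, adjusted p = 0.000198). The glutamate transporter gene *Slc1a3* and the lipid-binding protein gene *Fabp7*, both of radial glia, fell by 1.03 (SE 0.305, adjusted p = 0.0259) and by 0.72 (SE 0.193, adjusted p = 0.0149). Genes of this list thus moved in both directions.

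Of 14 oligodendrocyte lineage genes, 8 were tested and 1 was called, 12.5% against 15.8% of all tested genes, and 1 and 2 of the 8 passed within the sets, near the 15.6% and 23.2% of all tested genes. It was *Cnp*, which encodes a myelin-associated phosphodiesterase and rose by 0.81 (SE 0.149, limma adjusted p = 0.000886). *Olig1* and *Olig2*, bHLH factors of the lineage, were abundant, with values of 0.02 (adjusted p = 0.9) and -0.16 (adjusted p = 0.194). Of 16 SoxC targets and neuroblast genes, 14 were tested, and 2 rose, 1 fell and 11 did not pass (21.4% called, against 15.8% of all tested genes). Within the samples numbered 1 to 4, 9 of the 14 passed, and within those numbered 5 to 8, 6 of them, against 15.6% and 23.2% of all tested genes. The replicate block added *Elavl3*, which encodes a neuronal RNA-binding protein (1.05, adjusted p = 0.201 without the block and 0.000295 with it). The microtubule protein gene *Map2* fell by 0.47 (SE 0.108, adjusted p = 0.00557). The proneural gene *Neurod1* rose from 4.22 ± 1.96 to 25.9 ± 20.1 CPM (SD, n = 8 each; log2 fold change 2.15, adjusted p = 0.00538), by 1.40 in the samples numbered 1 to 4 and 2.90 in those numbered 5 to 8, which differed (limma interaction, adjusted p = 0.0327). Controls of *Neurod1* ran from 0.81 CPM, under the floor, to 6.49 CPM. *Hes6*, a Hes family gene of differentiating progenitors, rose by 0.80 (SE 0.122, adjusted p = 0.000153). The surface protein gene *Cd24a* had a value of -0.13 (adjusted p = 0.795; -0.38, adjusted p = 0.0111, in the samples numbered 5 to 8), and *Tead2*, a transcription factor gene of the Hippo pathway, one of -0.16 (adjusted p = 0.799). *Dcx*, a microtubule protein gene of migrating neuroblasts and low here at 2.14 and 2.41 CPM, also had opposite signs in the sets, with -2.87 (adjusted p = 0.00111) in the samples numbered 1 to 4 and 3.02 (adjusted p = 8.48e-05) in those numbered 5 to 8. In each set the lower group of *Dcx* was under the floor, so the size of these folds rests on the pseudocount of 0.5. *Dlx1* (-1.34, adjusted p = 0.00168), *Dlx2* (-1.65, adjusted p = 0.0025) and *Igfbpl1* (-1.72, adjusted p = 0.0278) also fell in the samples numbered 1 to 4. *Map2* fell there too, whereas *Neurod1*, *Hes6*, *Elavl3* and *Neurog2* rose. *Igfbpl1* (2.86 and 1.48 CPM) and *Neurog2* (0.349 and 1.7 CPM) were low. The fold of *Dlx1* differed between the sets (limma interaction, adjusted p = 0.0251).

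**Figure D4:**
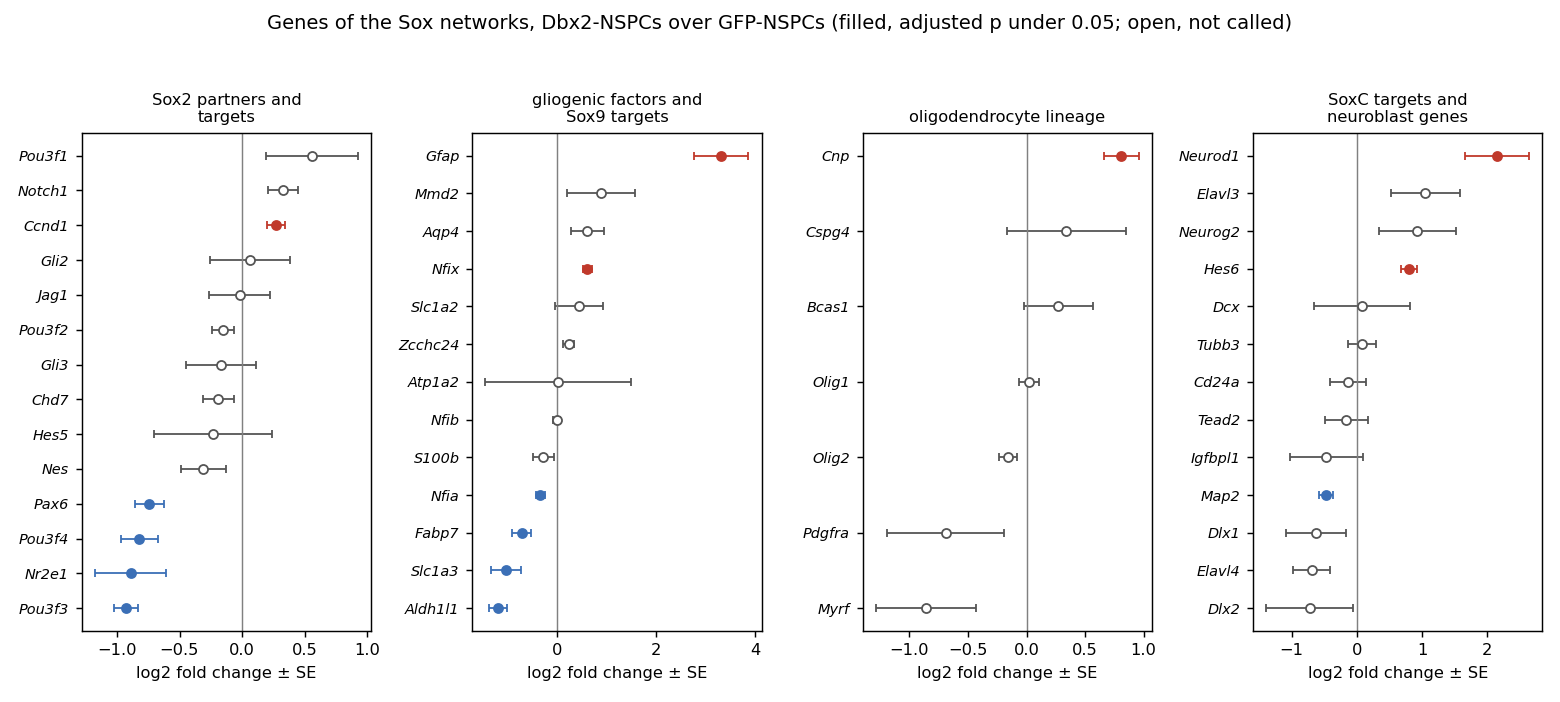
The 4 panels plot the log2 fold change ± SE of tested genes, *Dbx2*-NSPCs over *GFP*-NSPCs in all 16 samples, for the lists of *Sox2* partners and targets, gliogenic factors and *Sox9* targets, oligodendrocyte lineage genes, and SoxC targets and neuroblast genes. Filled red points rose and filled blue points fell with an adjusted p under 0.05, and open points did not pass. *Gfap* (3.31) and *Neurod1* (2.15) lie farthest to the right, and *Aldh1l1* (-1.20) farthest to the left.

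Markers of the labelled cell type and of other types the cultures could hold were measured alongside. NSPC markers were abundant, led by *Vim*, with a summed level of 5599.75 to 6844.3 CPM in *GFP*-NSPCs and 4561.01 to 5846.05 CPM in *Dbx2*-NSPCs, and *Prom1* was under the floor. Of 8 tested, 4 fell (*Egfr*, *Fabp7*, *Slc1a3* and *Nr2e1*), and edgeR and DESeq2 each called 3, where 7.78% of all tested genes fell. The 6 neuron markers, led by *Gad1*, summed to medians of 16.42 CPM in the controls and 12.71 CPM with the *Dbx2* transgene. Of the 4 tested, 0 passed by limma, edgeR or DESeq2, and 0 had an unadjusted limma p under 0.05 over all samples. Within the samples numbered 1 to 4, where 15.6% of all tested genes passed, *Rbfox3* (-1.96, adjusted p = 0.0106), *Snap25* (-1.56, adjusted p = 0.0328) and *Gad1* (-1.55, adjusted p = 0.00592) fell. *Snap25* was near the floor, with means of 1.23 CPM in all controls and 0.376 CPM with the *Dbx2* transgene, so that the size of its fold rests largely on the pseudocount of 0.5. In those numbered 5 to 8 *Rbfox3* rose by 2.90 (adjusted p = 0.000125), a difference between the sets of 4.86 (adjusted p = 3.9e-06). The lower group of *Rbfox3* in each set was at or near the floor, and the size of its folds rests largely on the pseudocount too. As for *Sox4*, the controls divided by sample set, with neuron sums of 26.19 to 47.66 CPM in numbers 1 to 4 and 2.72 to 6.64 CPM in numbers 5 to 8, and *Dbx2*-NSPCs between 8.81 and 18.58 CPM. The 6 astrocyte markers, led by *Slc1a2*, had median sums of 450.8 and 346.22 CPM. Their sums also divided by sample set, from 595.17 to 818.22 CPM in controls and from 411.91 to 602.65 CPM in *Dbx2*-NSPCs numbered 1 to 4, and from 224.54 to 306.43 and from 243.1 to 280.54 CPM in those numbered 5 to 8. *Slc1a2* had -0.31 (adjusted p = 0.21) in the first set and rose by 1.19 (adjusted p = 1.47e-06) in the other, and these differed (adjusted p = 2.67e-06). Of 5 astrocyte markers tested, *Gfap* rose and *Aldh1l1* fell (40% called, against 15.8% of all tested genes), with *Gjb6* at 0 throughout. Within the sets, 2 and 4 of the 5 passed, where 15.6% and 23.2% of all tested genes did. *Aqp4*, low at 6.35 and 9.87 CPM, had -0.03 (adjusted p = 0.976) in the first set and 1.26 (adjusted p = 0.0228) in the other. Its difference between the sets did not pass (adjusted p = 0.19). The 6 oligodendrocyte markers had median sums of 7.87 and 11.78 CPM, with *Mog* at 0. Of 3 tested 1 rose (*Mobp*, 0.122 and 2.49 CPM), where 8.03% of all tested genes rose. The 5 ependymal markers, led by *Foxj1*, had median sums of 19.62 and 36.12 CPM, and of 4 tested *Ccdc153* and *Rarres2* rose, where 8.03% of all tested genes rose, with *Tmem212* at 0. Both passed in the samples numbered 1 to 4 (2.44, adjusted p = 0.00276, and 1.77, adjusted p = 0.0148) and neither in those numbered 5 to 8 (1.05, adjusted p = 0.245, and 0.71, adjusted p = 0.286), and the differences between the sets did not pass (adjusted p = 0.313 and 0.353). *Ccdc153* (means of 1.43 and 5.41 CPM) and *Rarres2* (2.38 and 5.75 CPM) were low. Their lowest controls, at 0.0 and 0.55 CPM, were under the floor, so the size of these folds rests partly on the pseudocount. *Foxj1* (0.56, adjusted p = 0.104) passed with the replicate block (adjusted p = 0.0307). *Dynlrb2*, low at 3.87 and 3.57 CPM, passed in neither set (1.07, adjusted p = 0.0975, and -0.59, adjusted p = 0.17). Its fold did differ between the sets (-1.66, limma interaction, adjusted p = 0.0385). Microglial markers (*Aif1* and *Tmem119* at 0) and markers of endothelium and mural cells (*Cldn5* and *Cdh5* at 0) had median sums of 0.37 and 0.64 CPM and of 0.4 and 1.14 CPM. The part of such cells in the changes of the Sox genes was not tested.

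The genes nearest to each called Sox gene over the 16 samples were found by the root-mean-square (RMS) difference of centred log2 values, among 8651 genes averaging 10 CPM or more. *Tmpo*, a gene of the nuclear lamina, was nearest to *Sox21* (RMS difference 0.262 against an SD of 0.699 of *Sox21* itself), followed by *Lrrn3* (0.264). *Pa2g4* (0.118) and *Nap1l1* (0.123) were nearest to *Sox11*, *Mrpl42* (0.17) and *Acadl* (0.172) to *Sox1*, and *Kctd20* (0.147) and *Hnrnpl* (0.148) to *Sox5*. *Mis12* (0.135) and *Zdhhc21* (0.147) were nearest to *Sox8*. *Sox6*, the only one of these that rose, was nearest to *Galnt16* (0.281) and *Srgap3* (0.298). The measure takes in the difference between the groups, so a direction shared with a near gene follows from the choice and is not a separate result.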

How the data were processed

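RNA-seq had been performed on 8 *GFP*-NSPC and 8 *Dbx2*-NSPC cultures. After trimming with bbduk and alignment by STAR 2.5.0a to GRCm38 with Ensembl annotation, the authors deposited CPM for 30386 genes, rounded to 2 decimals; the counting tool and strand setting are not given in the sources used here. Of the deposited columns, 0 were left out. CPM summed to 999484.7 to 999613.8 per sample, and 99.9925% to 100.0% of values above 0 were whole reads within 0.1 read. Genes that exceeded 1 CPM in 4 or more samples were tested on log2(CPM + 0.5) with limma 3.58.1 (eBayes with trend, 2-sided) in R 4.3.3, with Benjamini-Hochberg adjustment and a threshold of 0.05. The study used the cell line batch as a covariate, which the labels do not give, so the main fit had no covariate. The sample set was used as a covariate in an alternative fit only. Difference tests used a transgene by sample set interaction, and exact permutation tests used all splits of 8 against 8.

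The labels' replicate numbers gave the block. Residuals of same-numbered samples correlated at 0.152 to 0.303 in all 8 pairs, over 0.1 in each, and on this ground the numbers were used as a block. Other numbers of the same set correlated nearly as much (mean 0.199, against 0.226 for the same number), and 4 of 8 controls correlated best with their own number. After removal of the set means the range was -0.007 to 0.119, with a mean of 0.04. These values do not show that samples of the same number were matched beyond their sample set, so counts of same-numbered pairs are descriptive.

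Alternatives were other pseudocounts, filters and scaling, eBayes without trend, the block, the sample set as covariate, each set alone, each sample left out, and edgeR 4.0.16 and DESeq2 1.42.0 on recovered reads. Each tool was tested on simulated data. Positions came from GENCODE M21. The Sox genes, lists and sample sets were chosen with earlier results of these data known. Named from each list were up to 5 called genes of largest change with at least 10 CPM in a group and up to 3 abundant genes not called, and for each called Sox gene its 2 nearest profiles. *Nfia*, *Pou3f1*, *Dcx*, *Sox6os*, *Mobp*, *Elavl3*, *Snap25*, *Ccdc153*, *Rarres2*, *Dlx1*, *Dlx2*, *Igfbpl1*, *Neurog2* and *Dynlrb2* were added after their values were seen. A few genes of the lists enter the counts and sums and are not reported here by name.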

Additional observations from a re-analysis of the deposited data

Results flagged for a closer look

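For *Sox4*, the log2 fold change was larger by 1.06 in the samples numbered 5 to 8 than in those numbered 1 to 4 (limma interaction, adjusted p = 1.68e-05), with opposite signs in the sets. For *Sox3* the difference between the sets was 0.80 (adjusted p = 0.0173), and for *Dbx2* it was 1.45 (adjusted p = 0.000104), both positive. The sets are not named by the labels, and the sets and any other difference between those cultures cannot be told apart.

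Among the 8 *Dbx2*-NSPC samples, number 1 stood far from the rest for *Dbx2*, at 232.13 CPM, and number 4 stood far from the rest for *Sox12*, at 44.85 CPM. Chance flags about 5% of groups in this way, and these were 2 of 26 groups examined.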

How the results depend on the processing

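The 6 called Sox genes numbered 6 under other pseudocounts, filters and scaling, eBayes without trend, edgeR, DESeq2 and each of the 16 omissions of a sample, and no call among the 10 changed when a sample was left out. The tested genes called then numbered 1684 to 2210. With the replicate block, 2723 tested genes and 8 Sox genes were called, *Sox2* and *Sox9* being added, and no other call of the 10 or of *Dbx2* changed. With the sample set as a covariate, 3034 tested genes and the same 8 Sox genes were called. The sign turned for *Sox3* in the samples numbered 1 to 4 (-0.12) and for *Sox4* in those numbered 5 to 8 (0.38), and the cause was not tested. *Sox8*, *Sox11* and *Dbx2* lost their calls in the samples numbered 1 to 4 (-0.43, -0.31 and 0.54) and *Sox1* and *Sox5* in those numbered 5 to 8 (-0.20 and -0.27). The cause of these losses was not tested. Genes whose fold differed between the sets numbered 1183, and 1173 by edgeR, 1207 with a pseudocount of 2 and 1308 with the replicate block.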
